A study of Mus musculus with 10 samples.

Results

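The 10 chemokine receptors that guide T cells between spleen, lymph node, blood and tissue (Ccr2, Ccr4, Ccr6, Ccr7, Ccr9, Cx3cr1, Cxcr3, Cxcr4, Cxcr5 and Cxcr6) were chosen by gene symbol, 10 of the 20617 rows of a bulk RNA sequencing table of spleen CD3+ T cells. The cells came from Nf1OPG mice (Nf1 flox/mut; GFAP-Cre), which carry a germline Nf1 mutation in every cell, T cells included, and lose the other Nf1 allele only where GFAP-Cre is active, in neuroglial progenitors. PBS replicates 1 to 5 (5 libraries) were from mice given PBS, and OVA replicates 6 to 10 (5 libraries) from mice given ovalbumin, the egg protein used as an allergen. It was injected intraperitoneally at 16 μg/mL in 0.5 mL with aluminum hydroxide at 2 mg/mL, on days -14 and -7, and followed, per the study's methods, by intranasal ovalbumin. The paper's methods name CD4 and CD8a kits for CD4+ and CD8+ T cells, and none for the sequenced CD3+ cells. The age of the mice when the cells were taken is not given in the sources used here. Control mice received PBS only, per the paper, so ovalbumin and aluminum hydroxide cannot be told apart. The comparison asks whether the ovalbumin treatment, with its aluminum hydroxide, altered these transcripts in splenic T cells.

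Chemokine receptors are G protein-coupled receptors that steer a cell along a gradient of small secreted proteins, the chemokines. Naive T cells use Ccr7 to enter lymph nodes from the blood, and leave them along sphingosine-1-phosphate, which S1pr1 senses. Activated and memory T cells lose much of Ccr7 and gain receptors for inflamed or barrier tissue, so that the receptor repertoire of a spleen sample reflects the mixture of naive, memory, helper, regulatory and cytotoxic T cells in it. In bulk RNA, fewer cells of a type and less RNA per cell cannot be told apart.

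In the table analysed here gene names stand below the values that belong to them. Values were therefore read 3 rows above the name for the Ccr genes and 5 rows above it for Cx3cr1 and the Cxcr genes. A model of this displacement, fitted to gene annotation and to each row's average without regard to treatment, gave the same rows, with a probability of 0.9988 to 0.9992 for the 5 Ccr genes and 0.939 to 0.959 for the other 5. Cxcr2, a neutrophil receptor listed between the rows of Cx3cr1 and Cxcr3, followed the summed neutrophil markers across the 10 mice at the same distance (Pearson r = 0.80, permutation p = 0.00567; Spearman rho = 0.66, permutation p = 0.043; r = 0.76 without the 2 mice farthest from the median; 1 relation computed). The marker rows were placed by the same model, and most of their sum was Elane in every mouse but OVA replicate 6. This check is therefore not independent of the model, and it covers 1 row. Recovered reads ran from 6835696 in PBS replicate 3 to 29915782 in OVA replicate 7, and the least covered receptor value rested on 42 reads. T cell markers were high in every library, with a sum over 10 genes of 78515 to 151425 normalized counts in PBS and 94091 to 126698 in OVA. A normalized count is a read count divided by the size factor of its library.

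Of the 10 receptors, 6 lie on mouse chromosome 9 (GRCm38, GENCODE M21), which holds 5.29% of the listed names. Ccr9, Cxcr6 and Ccr2 follow each other on the plus strand within 435120 bases, and Ccr4, Cx3cr1 and Cxcr5 lie elsewhere on the chromosome. The gene on the opposite strand that overlaps Cxcr6 (chr9:123806475-123811761) is Fyco1, and Bcl9l overlaps Cxcr5 (chr9:44511787-44561878) in the same way. If the library kit does not mark strand, reads of such partners cannot be told apart where exons overlap. RefSeq start regions (GRCm38.p6) were matched for 8 of the 10 receptors, all but Ccr7 and Cxcr5. Those of Cxcr6 and Ccr6, and of Cxcr3 and Ccr4, are shown because the transcripts within each of these pairs were the most alike across mice. Each is given 5′ to 3′ on the strand of its gene, from 250 bases before the start up to the first annotated exon, for Cxcr6 chr9:123806227-123806474 (plus strand), for Ccr6 chr17:8235793-8236042 (plus), for Cxcr3 chrX:101734270-101734397 (minus) and for Ccr4 chr9:114496563-114496794 (minus). The Ccr4 region lies within the annotated gene, which extends to base 114504917, so it is not upstream of the gene's outermost exon. Capitals mark matches on either strand to 4 short motifs. T-box factors were searched as TCACAC and RUNX factors as TGTGGT. The motif of the GATA family was searched as AGATAA. For KLF factors the letters CACCC were used.
Cxcr6: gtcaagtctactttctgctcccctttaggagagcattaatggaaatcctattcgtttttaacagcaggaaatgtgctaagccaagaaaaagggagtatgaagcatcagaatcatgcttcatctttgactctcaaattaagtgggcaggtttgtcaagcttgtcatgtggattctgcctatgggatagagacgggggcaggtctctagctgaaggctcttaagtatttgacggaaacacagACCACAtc
Ccr6: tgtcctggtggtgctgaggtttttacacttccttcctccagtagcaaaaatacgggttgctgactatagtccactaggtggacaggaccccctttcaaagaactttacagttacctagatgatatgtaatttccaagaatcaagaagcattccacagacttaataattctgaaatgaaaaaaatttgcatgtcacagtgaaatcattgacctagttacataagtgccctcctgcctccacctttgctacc
Cxcr3: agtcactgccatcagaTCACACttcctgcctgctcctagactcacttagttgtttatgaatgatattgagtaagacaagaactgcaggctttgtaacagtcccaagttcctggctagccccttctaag
Ccr4: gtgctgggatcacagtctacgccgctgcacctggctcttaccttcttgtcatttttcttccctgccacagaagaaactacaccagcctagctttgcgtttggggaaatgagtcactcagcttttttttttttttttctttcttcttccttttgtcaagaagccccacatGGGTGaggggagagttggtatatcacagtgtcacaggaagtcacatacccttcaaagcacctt
The T-box letters were found before the start of Cxcr3 only among the 8 receptors, against 12.3% of all 32851 start regions in the table. RUNX letters lay in 3 of the 8 (Cx3cr1, Cxcr3 and Cxcr6), against 14.05% of all regions, with the Cxcr6 match 5 to 10 bases before the start and the Cxcr3 match, 105 to 110 bases before it, in an annotated exon that is not shown. The Cx3cr1 match lay in a region that is exonic over all 250 bases. GATA letters lay in 2 of the 8, against 9.99%, and KLF letters in 4 of the 8, against 52.0%. The GATA matches were in Ccr2, where 233 of the 250 bases are exonic, and in another start region of Ccr6 that is not shown. The shares over all regions count single regions, while Ccr6 was searched in 2. The Ccr6 region shown held none of the 4 motifs, and the pairs shared none. A match is a run of letters and not a measured site.

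Levels of different receptors were compared per kilobase of merged exons. Ccr7 stood highest, followed by Cxcr6 and Cxcr3, and these 3 together carried most of the summed receptor signal. Of the sum over the 10 receptors, Ccr7 made up 49.7% ± 13.8 in PBS and 46.1% ± 6.92 in OVA (mean ± SD, n = 5 each), Cxcr6 24.2% ± 9.25 and 25.8% ± 5.57, and Cxcr3 16.7% ± 3.42 and 18.7% ± 1.87. The mean level over all 10 mice was 5677 ± 1494 normalized counts per kilobase for Ccr7, 2917 ± 773 for Cxcr6 and 2082 ± 365 for Cxcr3. The next level was 7.17-fold below Cxcr3. Cxcr4 had 294 ± 72.9, Cxcr5 251 ± 75.2, Ccr2 186 ± 77.0, Ccr6 153 ± 66.2 and Ccr9 115 ± 23.3 normalized counts per kilobase. Cx3cr1, at 62.1 ± 23.7, and Ccr4, at 41.3 ± 12.3, closed the order.

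**Figure D1:**
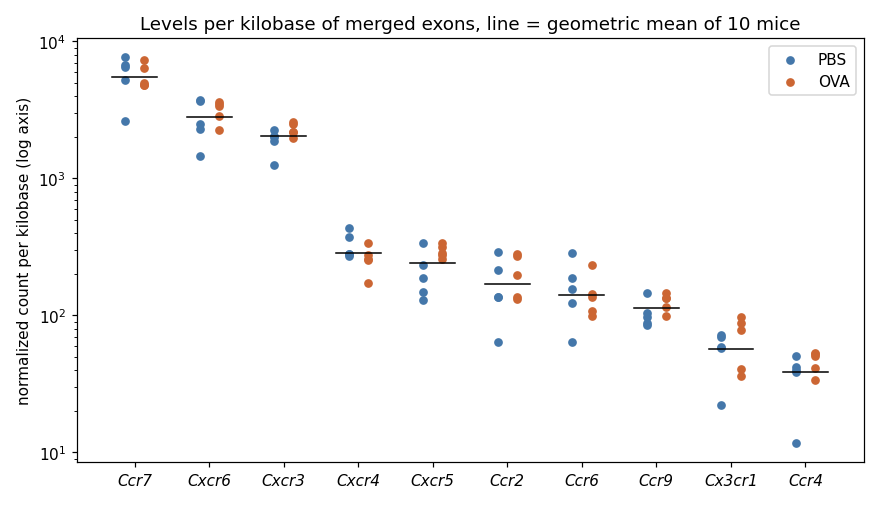
Normalized counts per kilobase of merged exons for the 10 receptors on a log axis, 1 point per mouse (blue PBS, orange OVA, 5 mice each), with a line at the geometric mean of the 10 mice. Ccr7, Cxcr6 and Cxcr3 stand apart at the top, and Cx3cr1 and Ccr4 at the bottom.

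Neighbours in this order were compared over the 10 mice by an exact two-sided sign-flip permutation test of the log2 difference, adjusted over 9 pairs, for which the smallest possible p is 0.00195. Of the 9 steps, 5 passed. Ccr7 lay above Cxcr6 in 9 of 10 mice (1.94-fold, exact permutation p = 0.00781, adjusted p = 0.0176), all but PBS replicate 3. Cxcr6 lay above Cxcr3 in 9 of 10 (1.37-fold, exact permutation p = 0.00391, adjusted p = 0.0117), and Cxcr3 above Cxcr4 in 10 of 10 (adjusted p = 0.00879, exact permutation p = 0.00195). Ccr9 lay above Cx3cr1 in 10 of 10 (1.97-fold, adjusted p = 0.00879 from the exact permutation test), and Cx3cr1 above Ccr4 in 8 of 10 (1.48-fold, adjusted p = 0.0211 from the same exact test). The 4 steps from Cxcr4 through Cxcr5, Ccr2 and Ccr6 to Ccr9 did not pass (adjusted p = 0.114 to 0.309, exact permutation), so these neighbours were not told apart by the test. Pairs that are not neighbours were not tested, but Cxcr4 and Cxcr5 each lay above Ccr9 in 10 of 10 mice. With the longest transcript in place of merged exons Ccr9 moved above Ccr2 and Ccr6, the step from Cxcr5 to Ccr9 passed (8 of 10 mice, adjusted p = 0.0176, exact permutation), and the step from Cx3cr1 to Ccr4 no longer passed (adjusted p = 0.0527, exact permutation). The annotated Ccr9 and Cx3cr1 genes extend over several neighbours, which lengthens the merged exons of Ccr9 to 10260 bases against 5197 in its longest transcript.

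None of the 10 receptors differed between OVA and PBS mice at an adjusted p under 0.05 (limma on log2(normalized count + 1), adjusted over 20249 rows with a mean of at least 1). Of all rows tested, 1 passed, or 0.00494%. There were 8 receptors with a higher mean log2 level in OVA and 2 a lower one, beside 54.5% of all rows with a difference above 0. The median log2 difference of the 10 was 0.28, beside 0.04 over all rows tested. Without PBS replicate 2 that median was 0.09. At an unadjusted p under 0.05 there was 1 receptor, Cxcr5, beside 9.77% of all rows. It was on the higher side, where 7.12% of all rows fell, and 0 receptors were on the lower side, where 2.65% did. The groups overlapped for all 10 receptors, and of all rows 1.42% had every OVA mouse above every PBS mouse and 0.356% every OVA mouse below. edgeR and DESeq2 on recovered reads also called 0 of the 10 (1 at an unadjusted p under 0.05 with each), and called 0.00988% and 0.894% of the rows for which they gave an adjusted p. The unadjusted count depended on the setting. With libraries scaled to the same total, or quantile normalized, it was 3 in limma (Ccr9, Cxcr3 and Cxcr5). Leaving out 1 mouse gave 0 (without PBS replicate 2) to 3. The share of all rows in those settings is not given here. The 95% intervals of the single fold differences (limma) ran from 0.973 to 1.54 for Cxcr3 and from 0.957 to 1.55 for Ccr9. On the log2 scale they were wider for the others, such as 0.591 to 1.05 for Cxcr4, 0.573 to 1.56 for Ccr6 and 0.840 to 2.30 for Ccr4 (as folds). The smallest p that an exact permutation of 5 against 5 mice can give is 0.00794.

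**Figure D2:**
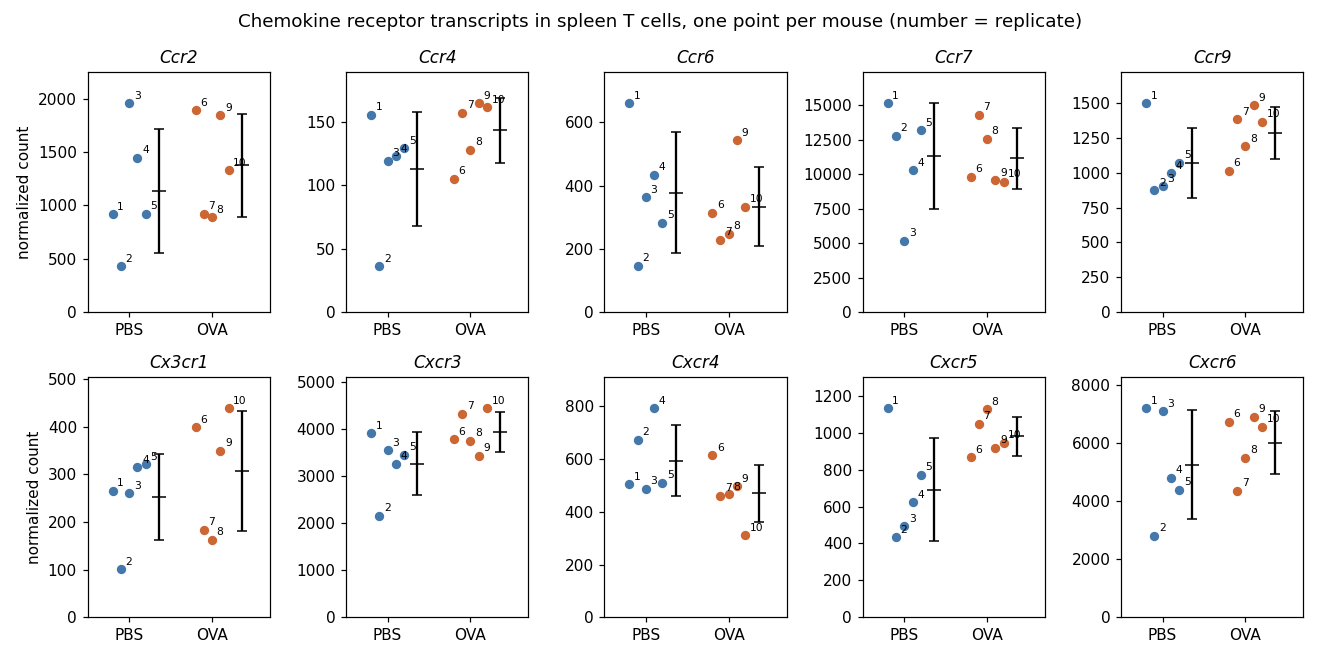
Normalized counts of the 10 receptors in each mouse, with the mean ± SD of 5 mice beside each group and the replicate number at each point. PBS replicate 2 is the lowest of all mice in 8 panels, and in every panel the groups overlap.

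**Figure D3:**
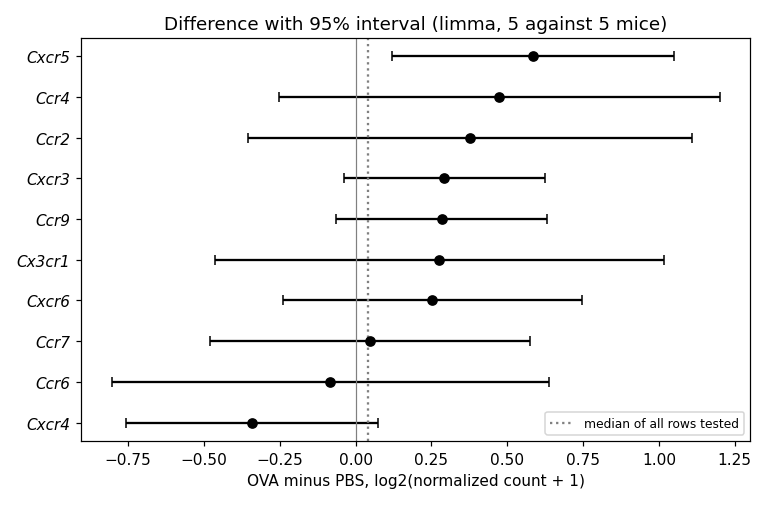
Log2 difference between OVA and PBS for each receptor with its 95% interval from limma, in order of size. The interval of Cxcr5, from 0.12 to 1.05, is the only one that leaves out 0.

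The receptors of lymphoid tissue were examined first. Cxcr5, which brings follicular helper T cells (and B cells) to B cell follicles along CXCL13, had 1131, 435, 493, 623 and 772 normalized counts in PBS replicates 1 to 5 and 866, 1049, 1127, 919 and 944 in OVA replicates 6 to 10. Every OVA mouse lay above 4 of the 5 PBS mice, and PBS replicate 1 was the highest of all 10. The mean was 691 ± 278 in PBS and 981 ± 106 in OVA (SD, n = 5 each), a log2 difference of 0.58 ± 0.22 (SE, unadjusted p = 0.0172, adjusted p = 0.378, limma). The exact two-sided permutation test gave p = 0.0714. Without PBS replicate 1, limma gave a log2 difference of 0.78, and DESeq2 one of 0.75 with an adjusted p of 0.0191, the single setting in which any receptor passed; DESeq2 on all 10 mice did not call it. Without PBS replicate 2 the log2 difference was 0.44 in limma (unadjusted p = 0.0516, adjusted p = 0.491) and 0.37 in DESeq2 (unadjusted p = 0.105, adjusted p = 0.587). Markers of other cells differed between the groups as well, though 0 genes of these lists passed the adjusted test (limma). All 9 placed B cell genes had higher mean log2 levels in OVA (median log2 difference 1.77, 5 at an unadjusted p under 0.05), with sums of 790 to 2413 normalized counts in PBS and 879 to 6484 in OVA, highest in OVA replicate 6, and Cr2, Fcer2a and Pax5 at 0 in at least 1 library. Within groups, over the 10 mice, the correlation of Cxcr5 with that sum was negative and did not pass (r = -0.15, permutation p = 0.686, adjusted p = 0.892, rho = -0.27, permutation p = 0.446). Larger was that with the T cell sum, which did not pass (r = 0.76, permutation p = 0.0137, adjusted p = 0.411, rho = 0.79, permutation p = 0.00905, r = 0.77 without 2 mice). Sums of plasma cells (rho = -0.84), neutrophils (rho = -0.83), dendritic cells (rho = -0.79) and stromal genes (rho = 0.81) did not pass either (adjusted permutation p of r = 0.587 to 0.723). The part of any of these cells in the Cxcr5 difference was not tested.

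Ccr7, the lymph node entry receptor for CCL19 and CCL21, had 15149, 12775, 5154, 10299.8 and 13176 normalized counts in PBS and 9826, 14327, 12567, 9548 and 9464 in OVA. PBS replicate 3, the shallowest library, was the lowest and PBS replicate 1 the highest, so the OVA mice lay inside the PBS range. The means were 11311 ± 3850 and 11146 ± 2195, a log2 difference of 0.05 with a 95% interval from -0.48 to 0.58 (adjusted p = 0.965, limma). Its sign was not stable, at -0.02 in edgeR and -0.21 without PBS replicate 3.

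Ccr9, which binds CCL25 and directs T cells to the small intestine and within the thymus, had 1498, 874, 903, 994 and 1071 normalized counts in PBS and 1013, 1384, 1188, 1483 and 1365 in OVA. All 5 OVA mice lay above the PBS median, and PBS replicate 1 was again above every OVA mouse. The log2 difference was 0.28 ± 0.16 (SE, adjusted p = 0.589, limma; exact permutation p = 0.127).

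Cxcr4, the CXCL12 receptor that holds cells in bone marrow, was, with Ccr6, 1 of 2 members with a lower mean log2 level in OVA. It had 504, 673, 487, 791 and 509 normalized counts in PBS and 613, 461, 466, 496 and 311 in OVA. Only OVA replicate 6 lay above the PBS median, and OVA replicate 10 was the lowest of all. The means were 593 ± 134 and 469 ± 108, a log2 difference of -0.34 ± 0.19 (SE, adjusted p = 0.589, limma; exact permutation p = 0.135). Plasma cells, which use Cxcr4 to reach bone marrow, and erythroid cells also had lower marker levels in OVA. Of 7 placed plasma cell genes 6 were lower (median log2 difference -1.04, 3 at an unadjusted p under 0.05), with sums of 15097 to 91811 normalized counts in PBS and 8929 to 28726 in OVA. In every mouse most of that sum was Jchain (52625.5 ± 26681 in PBS, 16043 ± 7115 in OVA). All 8 placed erythroid genes were lower (median -1.29, 2 at an unadjusted p under 0.05), with sums of 2398 to 13242 in PBS and 419 to 7965 in OVA. Neutrophils, which carry Cxcr4 too, went the other way, with all 6 placed genes higher in OVA (median 1.74, 2 at an unadjusted p under 0.05) and sums of 3244 to 14996 and 3500.3 to 49787. In every mouse but OVA replicate 6, most of that sum was Elane, which hardly differed (6493 ± 3056 normalized counts in PBS, 6439 ± 2427 in OVA, log2 difference 0.05). Ly6g was at 0 in at least 1 library. Within groups, over the 10 mice, the correlation of Cxcr4 passed with none of these sums (adjusted permutation p = 0.892 for each). Its r was 0.17 with plasma cells (permutation p = 0.630), -0.31 with erythroid cells (permutation p = 0.379) and 0.38 with neutrophils (permutation p = 0.283). None of the genes of these lists passed the adjusted test (limma), and the part of these cells in the Cxcr4 difference was not tested.

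Among the receptors of effector and memory T cells, Cxcr3 binds CXCL9, CXCL10 and CXCL11 and marks type 1 helper and cytotoxic cells. It had 3905, 2162, 3550, 3267 and 3447 normalized counts in PBS and 3783, 4318, 3745, 3426 and 4436 in OVA. The groups were close apart from PBS replicate 2, the lowest of all mice. Means of 3266 ± 660 and 3942 ± 423 gave a log2 difference of 0.29 ± 0.16 (SE, adjusted p = 0.566, limma; exact permutation p = 0.0794), and 0.15 without PBS replicate 2.

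Cxcr6, the receptor for CXCL16 found on tissue-seeking memory cells, had 7187, 2811, 7089.7, 4806 and 4395 normalized counts in PBS and 6735, 4354, 5482, 6905 and 6557 in OVA. PBS replicates 1 and 3 were above every OVA mouse and PBS replicate 2 below. The log2 difference was 0.25 ± 0.23 (SE, adjusted p = 0.751, limma), and 0.048 without PBS replicate 2.

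Ccr2, which follows CCL2 into inflamed tissue, had 915, 429, 1958, 1446 and 923 normalized counts in PBS and 1889.8, 920.1, 890.2, 1846 and 1329 in OVA. The mice of both groups split widely, and the highest and the lowest value were both in PBS. The log2 difference was 0.38 ± 0.34 (SE, adjusted p = 0.750, limma), and 0.07 without PBS replicate 2.

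Cx3cr1, the receptor for CX3CL1 on long-lived cytotoxic T cells and on monocytes, had 265, 101, 260.3, 315 and 321 normalized counts in PBS and 399, 184, 163, 349.5 and 438 in OVA. In OVA 3 mice lay above every PBS mouse and the remaining 2 below every PBS mouse but replicate 2. The log2 difference of 0.27 ± 0.35 (SE, adjusted p = 0.828, limma) turned to -0.03 without PBS replicate 2. Sums of 10 placed monocyte and macrophage genes were 13460.1 to 18822 normalized counts in PBS and 12275 to 24952 in OVA, with Fcgr1 and C1qc at 0 in at least 1 library. Most of that sum was Ly6c2 (12781 ± 974 in PBS, 12620.2 ± 2102 in OVA), which T cells make too. Of the 10 placed genes, 6 had higher and 4 lower mean log2 levels in OVA (median log2 difference 0.14). Only 1 of them had an unadjusted p under 0.05, and 0 passed the adjusted test (limma). That gene was Csf1r, the receptor that sustains macrophages, with 227 ± 91.8 normalized counts in PBS and 449.8 ± 191 in OVA (log2 difference 0.95, unadjusted p = 0.0161, adjusted p = 0.372, limma). The part of these cells in the Cx3cr1 and Ccr2 levels was not tested.

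Ccr4 and Ccr6 are receptors of helper and regulatory subsets. Ccr4, for CCL17 and CCL22, is carried by type 2 helper, regulatory and skin-homing cells. It had 156, 36.1, 119, 123 and 129 normalized counts in PBS and 105, 157, 128, 165 and 161 in OVA. PBS replicate 2 was 0.280 times the median of the other 9 mice, and apart from it the groups lay over each other. The means of 112 ± 45.0 and 143 ± 25.8 gave a log2 difference of 0.47 ± 0.34 (SE, adjusted p = 0.668, limma), and 0.11 without PBS replicate 2. Ccr6, for CCL20, marks type 17 helper cells and many B cells. It had 660.5, 147, 363, 434 and 283 normalized counts in PBS and 315, 229, 248, 543 and 334 in OVA. Only OVA replicate 9 lay above the PBS median. The log2 difference of -0.08 ± 0.34 (SE, adjusted p = 0.953, limma) was 0.03 when each library was scaled to the same total, a setting that moved the median of all rows up by 0.11, and 0.16 without PBS replicate 1.

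PBS replicate 2 stood apart from the other mice. It was the lowest mouse for 8 of the 10 receptors, from 0.280 times the median of the other mice (Ccr4) to 0.735 times (Ccr9), but the second highest for Cxcr4 (1.36 times) and above the median for Ccr7 (1.24 times). Its T cell marker sum, 105500, lay within the range of the other mice. Its erythroid sum of 13242 normalized counts was the highest of all mice. Its neutrophil sum of 14996, of which Elane made up 9736, and its monocyte and macrophage sum of 18822 were the highest in PBS. Its plasma cell sum of 70543 was the second highest, and the part of these cells in its receptor levels was not tested. PBS replicate 1, with the highest T cell sum, was the highest mouse for 5 receptors (Ccr6, Ccr7, Ccr9, Cxcr5 and Cxcr6).

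Receptors were then compared across the 10 mice after removal of each group's mean, on log2(normalized count + 1). Of 45 pairs, 30 had a Pearson r above 0 and the median r was 0.45, but 0 passed an adjusted p under 0.05 by permutation (100000 resamples). The values of a mouse share a library and its scaling. Several positive r turned negative without the 2 mice farthest from the median of the first gene named. These included Cxcr5 with Cxcr6 (0.37 to -0.84), Ccr6 with Cxcr3 (0.56 to -0.50) and Ccr2 with Cxcr3 (0.45 to -0.42), while the 2 most alike pairs kept their sign. The most alike pairs were Ccr4 and Cxcr3 (r = 0.88, permutation p = 0.00562, adjusted p = 0.0547; rho = 0.61, permutation p = 0.0663, adjusted p = 0.329; r = 0.58 without 2 mice) and Ccr6 and Cxcr6 (r = 0.85, permutation p = 0.00189, adjusted p = 0.0547; rho = 0.88, permutation p = 0.00154, adjusted p = 0.0693; r = 0.60 without 2 mice). In each case the 2 mice left out were the farthest from the median of the first gene. Ccr9 was most like Cxcr5 (r = 0.79), Cx3cr1 most like Ccr2 (r = 0.79) and Ccr7 most like Cxcr5 (r = 0.58). The lowest r was that of Ccr2 with Ccr7 (r = -0.74, permutation p = 0.0132, adjusted p = 0.0847; rho = -0.70, permutation p = 0.0308, adjusted p = 0.329; r = -0.72 without 2 mice). Cxcr4 was like no other member, with 0.14 (Ccr7) as its highest r.

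**Figure D4:**
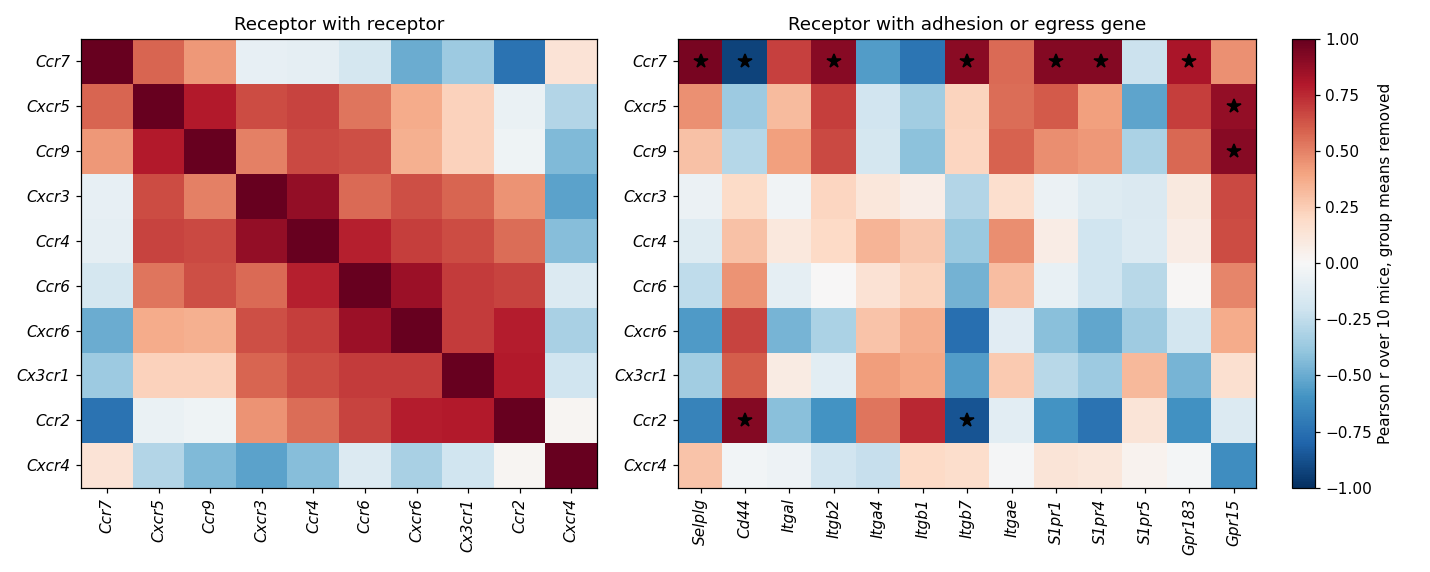
Pearson r over 10 mice, with group means removed, between the receptors (left) and between the receptors and 13 adhesion and egress genes (right), from blue (-1) through white (0) to red (1). Stars mark the 11 of 130 relations with an adjusted p under 0.05, of which 7 are in the Ccr7 row.

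The receptors were also set against 13 adhesion and egress genes, the molecules that work beside chemokine receptors in crossing vessel walls. Of 130 relations, 11 passed an adjusted p under 0.05 (permutation), and 7 of these were of Ccr7. Ccr7 went with S1pr1 (r = 0.92, permutation p = 0.00052, adjusted p = 0.0110; rho = 0.87, permutation p = 0.00203, adjusted p = 0.0466) and with Selplg, the adhesion ligand PSGL-1 (r = 0.95, permutation p = 0.00014, adjusted p = 0.0110; rho = 0.93, permutation p = 0.00025, adjusted p = 0.0325). It went against Cd44, the hyaluronan receptor raised on activated and memory T cells (r = -0.92, permutation p = 0.00025, adjusted p = 0.0110; rho = -0.84, permutation p = 0.00352, adjusted p = 0.0578). Without the 2 mice farthest from the Ccr7 median, r was 0.80 with S1pr1, 0.87 with Selplg and -0.90 with Cd44. The other 4 partners of Ccr7 were Itgb2, Itgb7, S1pr4 and Gpr183, with r between 0.82 and 0.92. Ccr2 was the reverse, rising with Cd44 (r = 0.92, permutation p = 0.0004, adjusted p = 0.0110; rho = 0.90, permutation p = 0.00086, adjusted p = 0.0373; r = 0.90 without 2 mice) and falling with Itgb7 (r = -0.86, adjusted permutation p = 0.0185; rho = -0.87, adjusted permutation p = 0.0466; r = -0.72 without 2 mice). Ccr9 and Cxcr5 both followed Gpr15, a receptor for homing to the large intestine (r = 0.91 and 0.88, adjusted permutation p = 0.0110 and 0.0185; rho = 0.82 and 0.84, adjusted permutation p = 0.0695 and 0.0578; r = 0.75 and 0.62 without 2 mice). All 11 kept their sign without the 2 mice, and all 11 passed again with each library scaled to the same total, where 13 of 130 passed. By Spearman's rho 6 of the 11 passed.

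**Figure D5:**
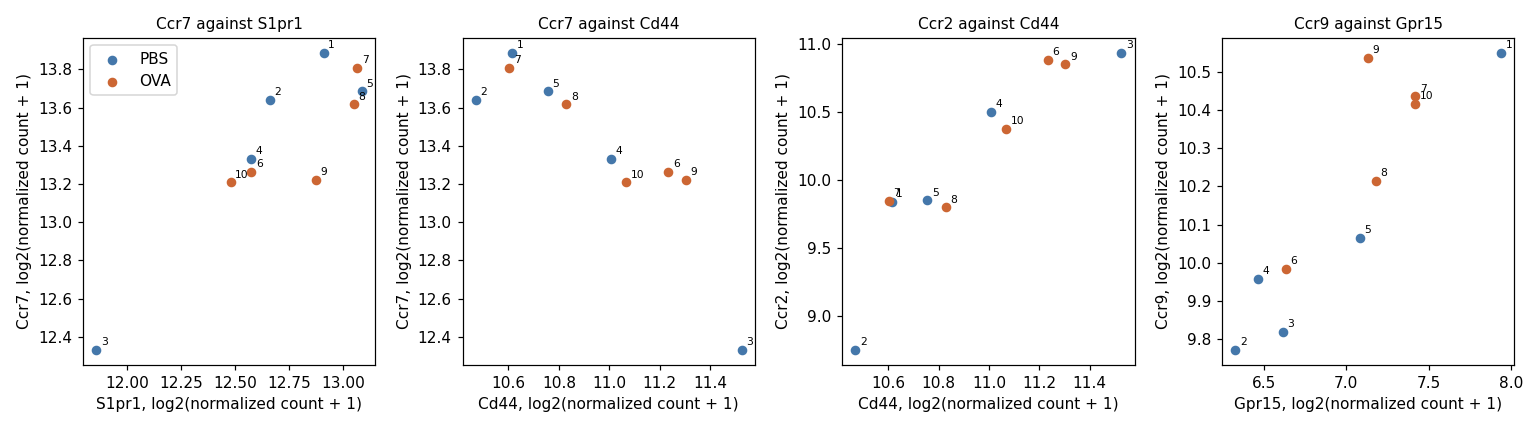
Ccr7 against S1pr1 and Cd44, Ccr2 against Cd44, and Ccr9 against Gpr15, each as log2(normalized count + 1) with 1 point per mouse (blue PBS, orange OVA) and its replicate number. Mice of both treatments are spread along each relation, and PBS replicate 3 is the mouse with the lowest Ccr7 and S1pr1 and the highest Cd44.

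Ccr7 and S1pr1 were lowest in PBS replicate 3 (5154 and 3711 normalized counts), where Cd44 was highest (2947). OVA replicates 6, 9 and 10 stood next for Ccr7, and OVA replicates 6 and 9 for Cd44 (2408 and 2526), so the spread ran within both treatments. Between treatments the log2 difference was 0.19 ± 0.21 for S1pr1 and 0.13 ± 0.19 for Cd44 (SE, adjusted p = 0.792 and 0.857, limma). Against the 9 summed marker lists, 1 of 90 relations passed, that of Ccr7 with the 4 placed stromal genes (r = 0.94, permutation p = 0.00034, adjusted p = 0.0306; rho = 0.89, permutation p = 0.00104; r = 0.76 without 2 mice). Most of that sum was Pecam1 (1781 ± 461 normalized counts in PBS, 2067 ± 223 in OVA), an adhesion molecule that T cells carry too. The relation of Ccr7 with the T cell marker sum came next and did not pass (r = 0.86, permutation p = 0.00197, adjusted p = 0.0886; rho = 0.76, permutation p = 0.0147; r = 0.53 without 2 mice). PBS replicate 3, the lowest mouse for Ccr7 and S1pr1, had the lowest T cell sum of all mice (78515 normalized counts) and the highest plasma cell sum (91811), and their part in the relations of Ccr7 was not tested.

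The genes around the receptors were read from lists, and the rows of all of them were placed by the model alone. Of 14 other chemokine receptors, 12 were placed with a probability of at least 0.9, and 0 passed the adjusted test (1 at an unadjusted p under 0.05, higher in OVA). Ackr2 was that gene, at 0.396 ± 0.545 normalized counts in PBS and 5.15 ± 5.30 in OVA, a level of a few reads. Next were Ackr1 (814 ± 158 and 989.7 ± 59.2) and Ccr10 (87.0 ± 36.5 and 124 ± 87.9), a receptor of skin-homing T cells and of plasma cells. Of 16 ligands 9 were placed, and 0 passed (0 at an unadjusted p under 0.05). They were scarce in these cells, with a summed level of 91.3 to 197 normalized counts over all 9, and Ccl17, Ccl22, Cxcl9, Cxcl12 and Cxcl13 at 0 in at least 1 library. Cxcl9 (35.9 ± 44.2 in PBS, 7.76 ± 7.54 in OVA), Ccl22 (9.70 ± 10.1 and 2.17 ± 2.12) and Ccl25 (52.1 ± 10.0 and 67.4 ± 16.4) had the smallest p.

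All 13 adhesion and egress genes were placed, and 0 passed (1 at an unadjusted p under 0.05, higher in OVA), with a median log2 difference of 0.19. Itgal, the alpha chain of LFA-1, had 3757 ± 832 normalized counts in PBS and 4691 ± 541 in OVA (log2 difference 0.34, unadjusted p = 0.0477, adjusted p = 0.505, limma), Itga4, the alpha-4 integrin, 1398 ± 334 and 1684 ± 219.9, and Itgb2, the beta chain that pairs with Itgal, 11108 ± 2493 and 12526 ± 1663. Of 17 signalling and desensitization genes 12 were placed, and 0 passed (1 at an unadjusted p under 0.05, higher in OVA), with a median of -0.05. Dock2, the exchange factor that activates Rac downstream of chemokine receptors, had 3218 ± 690 normalized counts in PBS and 4414 ± 644 in OVA (log2 difference 0.47 ± 0.15 SE, unadjusted p = 0.00868, adjusted p = 0.326, limma). Rgs2 (224 ± 79.5 and 309.6 ± 66.2) and Klf2, the factor that maintains S1pr1 in naive T cells (883 ± 139 and 777 ± 107), followed.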

How the data were processed

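Spleen CD3+ T cells of 5 PBS and 5 OVA mice were profiled by bulk RNA sequencing (Illumina TruSeq kit), and each library was taken as 1 mouse, since pooling is not stated. Per the labels and the study's methods, the authors demultiplexed reads (bcl2fastq), aligned them with STAR 2.6.1d to the Ensembl mouse assembly (mm10), counted genes in Partek Flow 9.0 and normalized them with median-ratio size factors. The authors deposited the resulting normalized counts (a signal that is never negative). In the table analysed here the gene names are out of step with the values. The members, gene lists and rows were chosen with earlier results of these data known.

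Within each library at least 99.9% of values were whole multiples (within 0.1) of 1 step, and dividing by it recovered reads. The distance between names and values came from a hidden Markov model whose states ran from -10 to 40 rows. It used GENCODE M21, which holds 97.7% of the names, 99.5% of them with the identical chromosome and start. It was tested on data simulated from its own fitted annotation model, which cannot show how well that model describes the real rows. A gene placed with a probability under 0.9 got no value.

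Rows with a mean of at least 1 were compared with limma 3.58.1 (R 4.3.3) on log2(normalized count + 1), with trended variance and p-values adjusted by Benjamini-Hochberg over all rows. The pseudocount understates changes of low genes. DESeq2 1.42.0, the study's tool, and edgeR 4.0.16 (quasi-likelihood) were run on recovered reads, and called 167 and 2 rows. Single receptors were also compared by exact two-sided permutation (scipy 1.17.1). Besides the 10 receptors, genes were named by the smallest unadjusted p, up to 3 per pathway list. Some genes of the lists are not reported here. S1pr1, Cd44 and other partners were named from the 130 relations, which were added after the values had been seen. Alternatives were pseudocounts of 0.1 and 0.5, other minimum means (none, 5 and 10), scaling to the same total, quantile normalization, each mouse left out, other row distances and, added after seeing the data, DESeq2 without each mouse.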

Additional observations from a re-analysis of the deposited data

Results flagged for a closer look

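Of 20 groups of 5 mice (10 receptors in 2 treatments), 1 held a mouse far from the others by Dixon's ratio of gap to range, for which the critical value is 0.71, and chance gives about 1 in 20. It was Cx3cr1 in PBS, where replicate 2 was lowest with 101 normalized counts, the other 4 mice had 260.3 to 321, and the ratio was 0.724.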

How the results depend on the processing

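The number of receptors past an adjusted p under 0.05 was 0 under every alternative but 1. That was among the DESeq2 fits without each mouse in turn, where the number ran from 0 to 1, the 1 being Cxcr5 without PBS replicate 1. Of all rows, limma called 1, edgeR 2, DESeq2 167, limma without PBS replicate 5 called 135, and DESeq2 without 1 mouse called 81 (without OVA replicate 9) to 387 (without PBS replicate 5). The median log2 difference of the 10 receptors stayed above 0, with 0.09 to 0.35 in limma and 0.07 or more in DESeq2 when 1 mouse was left out, lowest without PBS replicate 2, and 0.39 at most, with each library at the same total. Signs of single receptors that had not passed turned as follows, and the cause was not tested. Scaling to the same total turned Ccr6 to 0.029, and Ccr7 was -0.021 with edgeR and -0.021 with DESeq2. Leaving out 1 mouse gave -0.38 to 0.16 for Ccr6, -0.21 to 0.18 for Ccr7 and -0.028 to 0.47 for Cx3cr1 with limma, and -0.42 to 0.13 for Ccr6 and -0.21 to 0.11 for Ccr7 with DESeq2 (-0.055 without PBS replicate 4, -0.13 without OVA replicate 7 and -0.068 without OVA replicate 8).

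Other rows give other genes' values by construction. With names as listed the log2 differences were 0.28 for Ccr6, -0.045 for Ccr9, 2.09 for Cxcr4 and -0.084 for Cxcr6. With values 1 row nearer to the name they were -0.012 for Ccr2, 0.048 for Ccr6, -0.34 for Cxcr3 and 0.58 for Cxcr4, and 1 row farther -0.012 for Ccr4, 0.30 for Ccr6, -0.083 for Ccr7, -0.19 for Cx3cr1, 0.29 for Cxcr4 and -0.34 for Cxcr5. Of the 9 steps in the order of levels 5 to 6 passed without 1 mouse, and 0 of 45 receptor pairs passed under either alternative. No paired analysis was possible because the PBS and OVA mice share no replicate number. Depth limits the low receptors most, since the lowest values of Ccr4 and Cx3cr1 rest on 42 and 94 reads.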
